A study of Schizosaccharomyces pombe with 6 samples.

Results

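The 10 histone genes examined here code for the fission yeast histones H2A (*hta1*, *hta2*), H2B (*htb1*), H3 (*hht1*, *hht2*, *hht3*) and H4 (*hhf1*, *hhf2*, *hhf3*), and for the H2A variant H2A.Z (*pht1*). They were taken by systematic ID from the 6988 features of the count table, and all 10 passed the low-count filter that left 5947 genes. Poly(A)+ RNA was sequenced from a quadruple mutant, *asp1-H397A aps1*∆ *siw14*∆ *spx1*∆, and from the wild-type strain, with 3 biological replicate cultures of each. Both are labelled *h-* haploids and were taken in vegetative log phase, grown at 30°C in the phosphate-replete medium ePMGT. The strain list of the study gives its strains background alleles of *leu1*, *ura4*, *his3* and *ade6*, and does not list the wild-type strain. The mutant carries a change in the inositol pyrophosphatase domain of Asp1 (marked with natMX) and deletions of *aps1* (kanMX), *siw14* (hygMX), both coding for inositol pyrophosphatases, and *spx1* (ura4MX), coding for an SPX-domain ubiquitin ligase. The question put to these libraries is which transcripts differ between the mutant and wild-type cells. The mutant is 1 strain with all 4 alterations, so the part of each alteration cannot be told apart, and neither can that of the *ura4* marker.

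Histones package DNA into nucleosomes, in which an H3-H4 tetramer and a pair of H2A-H2B dimers are wrapped by DNA. New histones are needed as DNA is copied, and the core histone genes are transcribed mostly in S phase. In fission yeast this transcription depends on the GATA-type factor Ams2 and is kept down outside S phase by the HIRA complex. H2A.Z replaces H2A in some nucleosomes, often near promoters, and is placed there by the SWR complex. In yeasts, the histone mRNAs are polyadenylated, unlike most of those of animals, and are therefore read by a poly(A)+ library.

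Of the 9 core histone genes, 8 are arranged as divergent pairs: *hta1-htb1* on chromosome III, *hht1-hhf1* on chromosome I, and *hht2-hhf2* and *hht3-hhf3* on chromosome II. *hta2* (chromosome I) and *pht1* (chromosome II) stand alone. The annotated starts of the pairs are 177 bases apart for *hta1-htb1*, 132 for *hht1-hhf1*, 134 for *hht2-hhf2* and 201 for *hht3-hhf3* in RefSeq's ASM294v3. The tandem AACCCTAACCCT, a form of the AACCCT box known from fission yeast histone promoters and bound in this organism by the factor Teb1, was found once in each of the 4 promoter regions below. They are shown because their 7 core genes share the element and *pht1* does not have it. Each is read 5′ to 3′ on the strand of the gene given, with the tandem in capitals and 9 bases on either side.
*hta2* (its own strand): atccatcaaAACCCTAACCCTgtatattgc
*hht1-hhf1* (strand of *hht1*): ctgcatcaaAACCCTAACCCTgcttttgat
*hht2-hhf2* (strand of *hhf2*): gtcaatcacAACCCTAACCCTgatttaaga
*hht3-hhf3* (strand of *hhf3*): tttgatcacAACCCTAACCCTttaattaaa

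The bases ATCA stood at positions 5 to 8 of all 4 stretches, counted from their left end. Searched on both strands of the 250 bases before each annotated start, the tandem was found for 7 of 8 histone genes searched (*hta2*, the *hht* and *hhf* genes and, without a match, *pht1*) and for 18 of 5105 protein-coding genes searched (0.353%), these 7 included. A single AACCCT or more was found for 8.27% of the protein-coding genes and not for *pht1*. From its end to the annotated start, the tandem lay 47 bases from *hht2*, 52 from *hta2* and *hhf1*, 61 from *hht3*, 68 from *hht1*, 75 from *hhf2* and 128 from *hhf3*. The sequences are of ASM294v3, while the authors mapped their reads to ASM294v2.

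The proteins of the *hht* genes do not differ by any residue (136 residues each), and neither do those of the *hhf* genes (103 residues each). The coding sequences are 88.3% to 92.7% identical among the *hht* genes and 91.3% to 93.3% among the *hhf* genes. Even so, windows of 51 bases, the read length, set the genes apart. Of all such windows of the annotated exon, 0.67% occurred elsewhere in the genome for *hhf2* and 0.874% for *hhf3*, against 0% for each of the other 8 genes. Overlap with other counted genes was larger. In ASM294v3, *hta1* lies wholly within the antisense noncoding gene *SPNCRNA.1194* and *hhf3* wholly within *SPNCRNA.1611*, which had 23 to 50 and 14 to 26 normalized counts per library. The end of *htb1* overlaps *sec5* on the other strand over 19.6% of its exon. *hhf2* shares 9.92% with *SPNCRNA.1432* on its own strand, and *hht3* shares 6.01% with *rav1* on the other. By comparison, *hta1* had 13517 to 25044 normalized counts per library and *hhf3* had 9382 to 20237, although each lies within such a gene. The sources used here do not give the strand setting of the counting, so reads of such overlapping genes may not be told apart.

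The libraries had 20305111 to 22690741 counts in the mutant and 16593476 to 21436751 in wild-type cells. Counts of *aps1* and *siw14* followed the labels: *aps1* had 307 to 330 counts in mutant libraries against 3083 to 3657 in wild-type libraries, and *siw14* had 70 to 107 against 1925 to 2666. *spx1*, also labelled as deleted, kept 1915 to 2369 against 4524 to 6452, a smaller loss than for those genes, and where along the gene these reads lie cannot be read from gene counts. The marker gene *ura4*, also among the background alleles of the strain list, had 8309 to 9631 against 0 in all 3 wild-type libraries. The labels give both strains as *h-*, while the strain list of the study shows a mutant with these alterations as *h+*. Of the *h-* markers, *mfm2* had 692 to 986 counts in the mutant against 2515 to 3917 in wild-type cells. *mfm1* had 9 to 10 against 95 to 142, and *mam2* 88 to 105 against 273 to 438. *mat1-Mc* and *mat1-Mm* were at 0 in all 6 libraries, also in wild-type cells labelled *h-*, so these rows do not tell the mating types apart. Of the *h+* markers, *map1* had 35 to 58 against 134 to 174, *map2* 72 to 87 against 106 to 133 and *map3* 267 to 311 against 221 to 293. The part of mating type in the results was not tested. As a check for a library held in duplicate, pairs of libraries of a strain were compared with counting noise, and none agreed within it (chi-square of 5.82 to 64.2 per degree of freedom, highest for wild-type replicates 1 and 3).

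Most core histone transcripts fell in the mutant. With p-values from edgeR's quasi-likelihood test, adjusted over 5947 genes by the Benjamini-Hochberg method and called at 0.05 or less, 7 of 10 histone genes were lower, while 7.03% of all genes tested were. The 7 were both H2A genes, *hht1* and *hht3* of the H3 genes, and all 3 H4 genes, and they kept 58.4% to 66.4% of the wild-type level. None of the 10 was higher (5.33% of all genes were), also at an unadjusted p under 0.05 and by DESeq2 and limma-voom. The H2B gene *htb1*, the H3 gene *hht2* and the H2A.Z gene *pht1* did not pass, with log2 fold changes of −0.30, −0.15 and −0.19. No histone gene reached the 2-fold change and mean normalized count of 100 that the study also required for a call (1.72% of all genes were lower and 0.37% higher by that rule). The median log2 fold change was −0.59 over the 10 genes and 0.00 over all genes tested. In cultures of mixed cell cycle stage, fewer cells in S phase and less histone mRNA per cell cannot be told apart.

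Values below are normalized counts, which are counts divided by the library's TMM-scaled size relative to the mean over libraries. Among the H2A genes, *hta1* (SPCC622.08c) had 14506, 13517 and 13543 in mutant replicates 1, 2 and 3, against 18336, 21061 and 25044 in wild-type replicates 1, 2 and 3. *hta2* (SPAC19G12.06c), the H2A gene with no divergent partner, had 18795, 18995 and 18388 in the mutant and 25381, 28517 and 34063 in wild-type cells. Every mutant library lay below every wild-type library for both genes. The log2 fold change was −0.63 for *hta1* (standard error 0.12, adjusted p = 0.00535 from edgeR) and −0.65 for *hta2* (standard error 0.11, adjusted p = 0.00381).

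*htb1* (SPCC622.09), the only member coding for H2B, had 32690, 31594 and 28933 normalized counts in mutant libraries and 37453, 35538 and 41726 in wild-type libraries. The groups did not overlap, but the gap between the highest mutant and the lowest wild-type library was narrow. Its log2 fold change was −0.30 (95% interval −0.52 to −0.08) with an adjusted p of 0.0787 from edgeR, and an unadjusted p of 0.0127. The call turned on the setting, with an adjusted p of 0.0188 when library totals replaced TMM, 0.0256 in a fit of protein-coding genes alone, 0.0476 without wild-type replicate 1 and 0.0323 without wild-type replicate 3.

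Of the H3 genes, *hht1* (SPAC1834.04) had 18081, 16199 and 16363 normalized counts in the mutant, against 22718, 24830 and 28753 in wild-type cells. *hht3* (SPBC1105.11c) had 17656, 16203 and 16062 against 20521, 24451 and 30439. Neither gene's groups overlapped, and both fell to about the same share of the wild-type level, 66.4% for *hht1* (log2 fold change −0.59, adjusted p = 0.00506 from edgeR) and 66.2% for *hht3* (−0.60, adjusted p = 0.0143). The call of *hht3* was lost without mutant replicate 2 (adjusted p = 0.0633) or mutant replicate 3 (adjusted p = 0.0788). *hht2* (SPBC8D2.04) had 17057, 17667 and 16333 in mutant libraries and 15764, 18991 and 21901 in wild-type libraries. Here the groups overlapped, since wild-type replicate 1 lay below all mutant libraries. The interval of its log2 fold change ran from −0.41 to 0.11 (adjusted p = 0.473 from edgeR).

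The H4 genes fell without exception. *hhf1* (SPAC1834.03c) had 16798, 15485 and 15664 normalized counts in the mutant and 20192, 24023 and 29757 in wild-type cells. *hhf2* (SPBC8D2.03c) had 11796, 11707 and 12034 in the mutant and 14994, 18120 and 20487 in wild-type cells. *hhf3* (SPBC1105.12) had 10921, 9834 and 9382 in the mutant and 14884, 16486 and 20237 in wild-type cells, the largest fall of the 10 genes. All 3 were separated between the strains in every library. Their log2 fold changes were −0.63 for *hhf1* (adjusted p = 0.00998 from edgeR), −0.59 for *hhf2* (adjusted p = 0.00682) and −0.78 for *hhf3* (standard error 0.12, adjusted p = 0.00194). The call of *hhf1* was lost without mutant replicate 3 (adjusted p = 0.0587).

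*pht1* (SPBC11B10.10c), the H2A.Z gene, had 2527, 2541 and 2395 normalized counts in the mutant, against 2470, 2802 and 3225 in wild-type cells. The groups overlapped, and the log2 fold change of −0.19 had an interval from −0.42 to 0.05 (adjusted p = 0.289 from edgeR). It passed only without wild-type replicate 1 (adjusted p = 0.0411, log2 fold change −0.28).

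**Figure D1:**
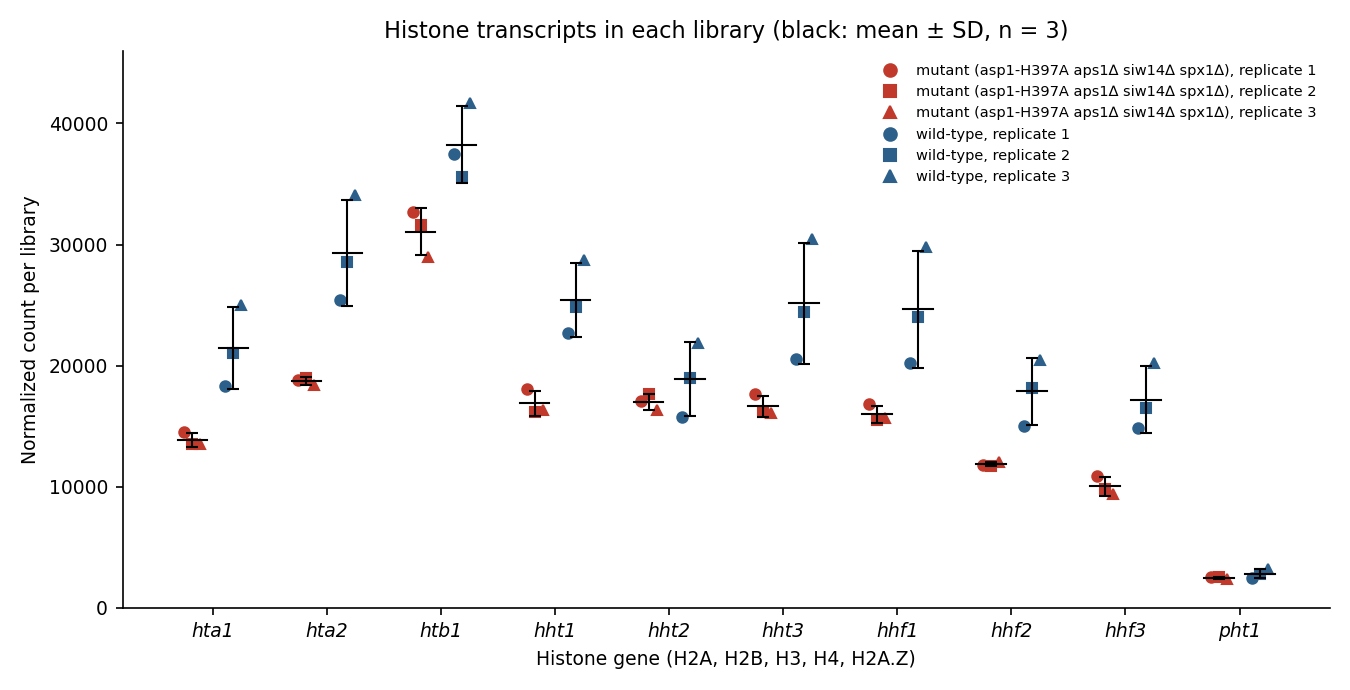
Normalized counts of the 10 histone genes in each of the 6 libraries, mutant left of wild-type for each gene, with the mean and SD of 3 replicates in black. The mutant and wild-type points do not overlap for 8 of 10 genes and overlap for *hht2* and *pht1*, and the wild-type points spread more widely.

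**Figure D2:**
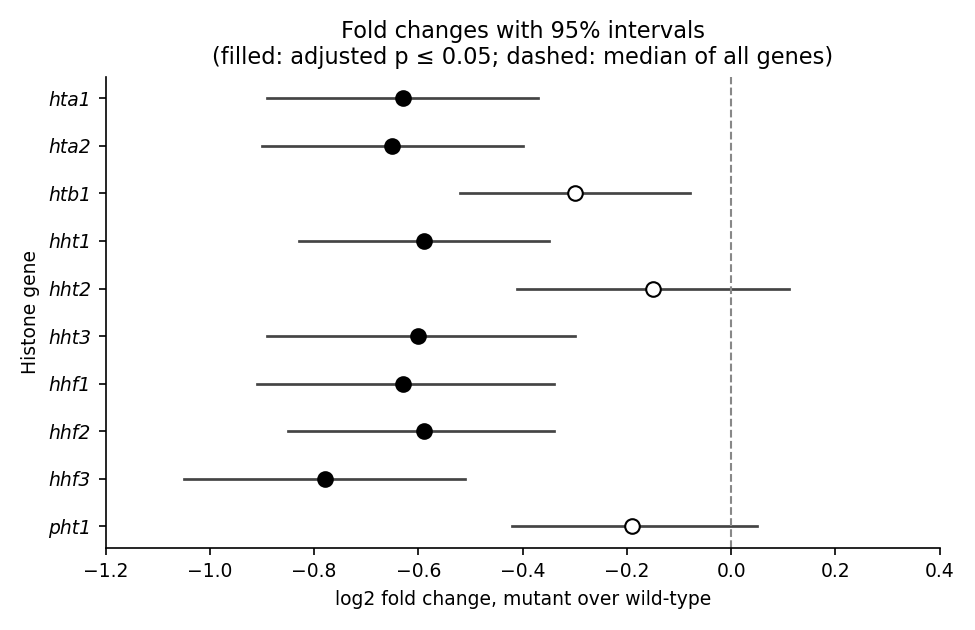
Log2 fold changes (mutant over wild-type, x axis) of the histone genes with 95% intervals from edgeR, filled where the adjusted p is at most 0.05, and the median of all genes tested as a dashed line. The 7 filled points lie between −0.78 and −0.59, and *htb1*, *hht2* and *pht1* lie closer to 0.

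Every mutant library was below every wild-type library for 8 of the 10 genes, while 17.3% of all genes tested showed this, and for none were all mutant libraries above (16.4% of all genes). The spread among wild-type libraries was wider than among mutant libraries: the highest wild-type library had 1.17 to 1.48 times the lowest for the 10 genes, and the highest mutant library 1.03 to 1.16 times the lowest. Wild-type replicate 3 was the highest of the 6 libraries for all 10 genes, and wild-type replicate 1 was the lowest wild-type library for 9, all but *htb1*. Other genes moved between these libraries as well. Centred per gene on the mean of the 6 libraries, the median log2 level of the 9 core genes was −0.23, −0.33 and −0.34 in mutant replicates 1, 2 and 3 and 0.09, 0.28 and 0.54 in wild-type replicates 1, 2 and 3. For 426 other protein-coding genes with a mean of at least 10000 normalized counts it was −0.01, 0.03 and 0.06 in the mutant and −0.18, −0.03 and 0.13 in wild-type cells. For 141 ribosomal protein genes, also highly expressed, it was −0.09, 0.01 and 0.04 in the mutant and −0.11, 0.00 and 0.14 in wild-type cells. For 1798 protein-coding genes with means of 100 to 1000 it was 0.04, 0.02 and 0.02 in the mutant and 0.18, 0.04 and −0.31 in wild-type cells, the opposite order among the wild-type libraries. The medians of the abundant genes thus followed the same order among the wild-type libraries, but those of the mutant lay within the wild-type range. Single genes did differ: of the 426, 27 were called lower and 58 higher by edgeR. Of all protein-coding genes tested, 5.74% were lower and 5.81% higher. The part of transcript abundance in the histone difference was not tested.

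**Figure D3:**
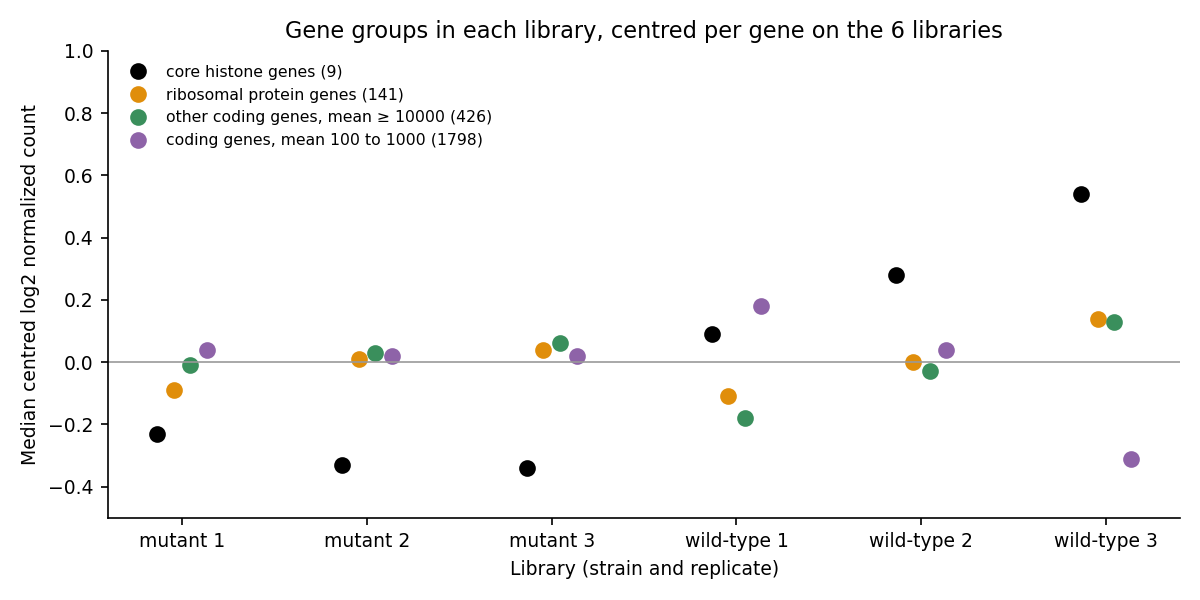
Median log2 normalized count of 4 gene groups in each library (x axis), each gene centred on its mean over the 6 libraries. The core histone genes are below 0 in all mutant libraries and above 0 in all wild-type libraries, while ribosomal protein genes and other abundant genes lie within 0.18 of 0 in every library; genes of lower counts are at −0.31 in wild-type replicate 3.

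Without wild-type replicate 3, in which histone transcripts were highest, 8 of 10 histone genes were called lower, with log2 fold changes from −0.65 (*hhf3*) to −0.24 (*htb1*) among the called. Without wild-type replicate 1, 9 were. The number of all genes called also moved with these libraries, to 912 lower and 858 higher without wild-type replicate 3 and to 693 lower and 634 higher without wild-type replicate 1, from 418 and 317 with all libraries. In a fit of protein-coding genes alone, 436 were lower and 215 higher, against 285 (5.74% of those tested) and 288 (5.81%) protein-coding genes in the fit of all genes. Among the histone genes, 8 were lower and 0 higher in that fit.

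The ratio of the genes of a divergent pair is read within a library and does not depend on the scaling. The H3 to H4 ratio *hht2*/*hhf2* was 1.45, 1.51 and 1.36 in mutant replicates 1, 2 and 3, against 1.05, 1.05 and 1.07 in wild-type cells, so that *hht2* was 1.36-fold higher relative to its partner in the mutant. The wild-type libraries hardly differed in this ratio (SD 0.02 on the log2 scale) although they differed in the level of both genes. The ratio *hht3*/*hhf3* was 1.62, 1.65 and 1.71 in the mutant and 1.38, 1.48 and 1.5 in wild-type cells. In contrast, *hht1*/*hhf1* was 1.08, 1.05 and 1.04 in the mutant and 1.13, 1.03 and 0.97 in wild-type cells, with full overlap. The H2A to H2B ratio *hta1*/*htb1* went the other way, with 0.44, 0.43 and 0.47 in the mutant and 0.49, 0.59 and 0.60 in wild-type cells.

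On the log2 scale, the mutant minus wild-type difference in these ratios was 0.44 for *hht2*/*hhf2*, 0.19 for *hht3*/*hhf3*, 0.02 for *hht1*/*hhf1* and −0.32 for *hta1*/*htb1*. Except for *hht1*/*hhf1* (p = 0.7), each had p = 0.1 by an exact permutation test, two-sided, the smallest that 3 libraries against 3 allow (adjusted p = 0.133 over the 4 pairs). This exact test can therefore not pass 0.05 here, whatever the size of a difference, and no other test of the ratios was run. The genes of a pair share a promoter region, and the 4 pairs are not replicates of one another. How often such ratios of other genes separate the strains was not computed.

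**Figure D4:**
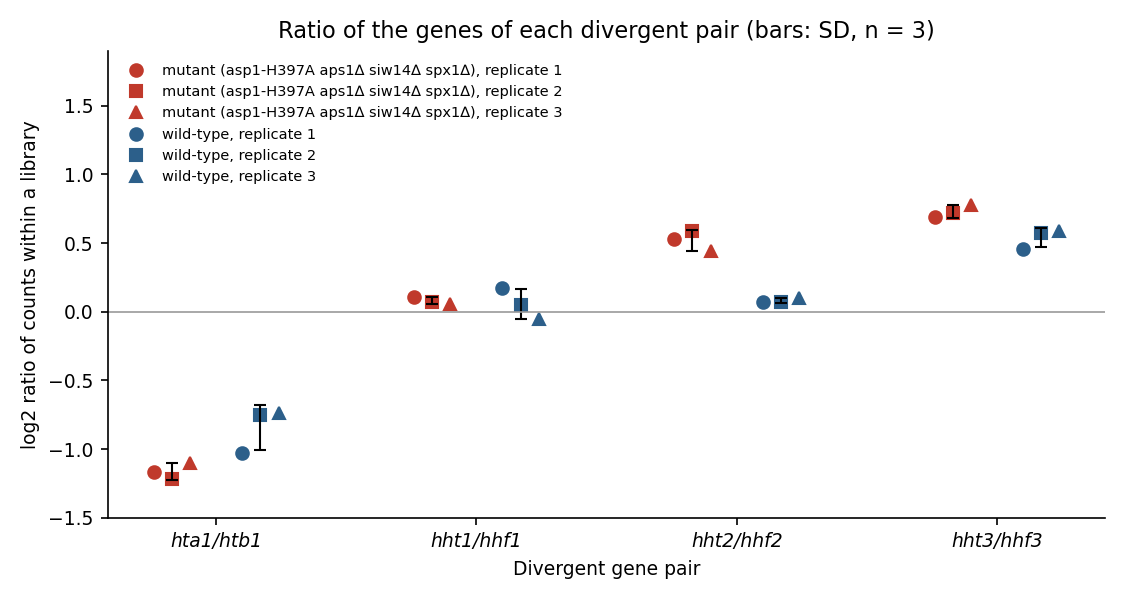
Log2 ratio of the counts of the genes of each divergent pair (y axis) in every library, mutant left of wild-type, with the SD of 3 replicates. The ratio is higher in all mutant libraries for *hht2*/*hhf2* and *hht3*/*hhf3*, lower in all for *hta1*/*htb1*, and overlaps for *hht1*/*hhf1*.

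Summed over both genes, *hta1-htb1* had 44928 ± 2366 normalized counts in the mutant and 59719 ± 6120 in wild-type cells (SD, n = 3 each). *hht1-hhf1* had 32863 ± 1754 and 50091 ± 7873, and *hht3-hhf3* had 26686 ± 1664 and 42340 ± 7731, in mutant and in wild-type cells. *hht2-hhf2* had 28865 ± 504 in the mutant and 36752 ± 5823 in wild-type cells. Set against each other within a library, *hht1-hhf1* and *hht3-hhf3* were lower in the mutant relative to the other pairs. The ratio of *hht2-hhf2* to *hht3-hhf3* was 1.01, 1.13 and 1.11 in mutant libraries and 0.87, 0.91 and 0.84 in wild-type libraries, a log2 difference of 0.32. That of *hht1-hhf1* to *hht2-hhf2* was 1.21, 1.08 and 1.13 in the mutant and 1.40, 1.32 and 1.38 in wild-type cells (log2 difference −0.26). The log2 difference was 0.19 for *hta1-htb1* over *hht1-hhf1* and 0.24 for *hta1-htb1* over *hht3-hhf3*. Between *hht1-hhf1* and *hht3-hhf3* the ratio differed by 0.05. These 5 of the 6 comparisons were separated in every library (exact permutation test, p = 0.1 each, adjusted p = 0.12 over the 6), and *hta1-htb1* over *hht2-hhf2* was not (log2 difference −0.07, exact p = 0.6). The 6 comparisons are built from the same 4 pair sums, so they are not independent. How often ratios of other genes separate the strains was not computed. Of single genes, 17.3% had every mutant library below every wild-type library, and 16.4% had every one above.

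Levels were compared between genes as RPKM, in which counts are scaled to the library total and to the length of the annotated exon (ASM294v3). In wild-type cells the order was *hta2* (1647 ± 123), *hht3* (1605 ± 199), *hht1* (1507 ± 68.6), *hhf1* (1459 ± 176), *htb1* (1428 ± 82.5), *hhf3* (1356 ± 115), *hht2* (1322 ± 120), *hhf2* (1101 ± 93), *hta1* (1014 ± 83.5) and *pht1* (112 ± 6.67; SD, n = 3). Neighbours in this order differed by less than the larger of their SDs, except for *hht2* over *hhf2* and *hta1* over *pht1*. RPKM was not corrected for overlap with other counted genes, such as the 9.92% of its exon that *hhf2* shares on its own strand. In the mutant *hht2* came first (1172 ± 48.9), followed by *htb1* (1135 ± 76.3), *hht3* (1047 ± 61.1), *hta2* (1034 ± 20.7), *hht1* (981 ± 65.5), *hhf1* (931 ± 46), *hhf3* (778 ± 65.6), *hhf2* (717 ± 8.39), *hta1* (643 ± 29.5) and *pht1* (96.5 ± 3.53). There the gaps after *htb1*, *hhf1*, *hhf2* and *hta1* exceeded the larger SD. Among 5139 protein-coding genes, *hht2* ranked 155 in the mutant and 151 in wild-type cells by mean RPKM, whereas *hta2* ranked 173 in the mutant and 120 in wild-type cells.

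The 3 H3 genes thus contributed differently in the strains. *hht2* made up 36.6% ± 1.55 of the summed H3 RPKM in the mutant and 29.8% ± 0.59 in wild-type cells. The share of *hht1* was 30.7% ± 0.95 in the mutant and 34.1% ± 1.5 in wild-type cells, and that of *hht3* was 32.7% ± 0.61 and 36.1% ± 1.35 (SD, n = 3 each). The libraries of the strains did not overlap for any of the 3. Shares of a whole are tied to each other, so these are not 3 separate changes. Shares in other gene families were not computed for comparison. *hht1* and *hht3* kept 66.4% and 66.2% of their wild-type level, and *hht2* 90.1%. Of the H4 shares, that of *hhf3* was also separated and those of *hhf1* and *hhf2* overlapped: *hhf1* had 38.4% ± 0.30 in the mutant and 37.2% ± 0.92 in wild-type cells, *hhf2* had 29.6% ± 1.34 and 28.1% ± 0.88, and *hhf3* had 32% ± 1.32 and 34.7% ± 0.90. The H2A transcripts kept their division, with *hta2* at 61.6% ± 0.96 in the mutant and 61.9% ± 0.27 in wild-type cells. These shares rest on exon lengths of a later annotation than the one counted, and were not corrected for overlap with other counted genes.

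**Figure D5:**
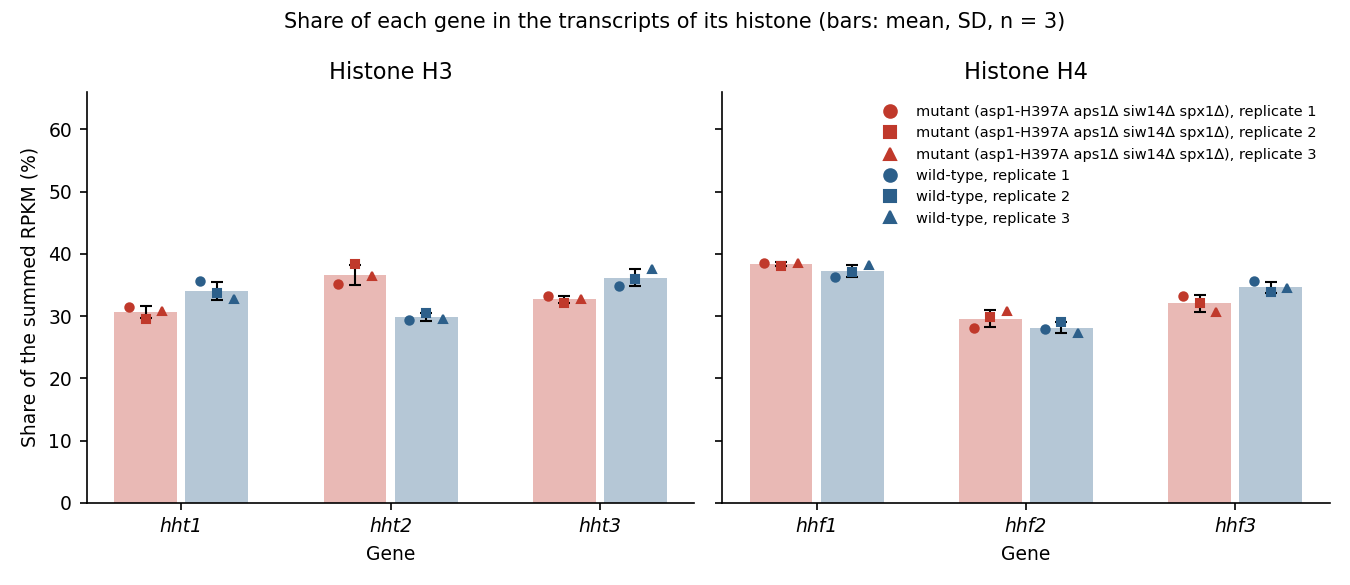
Share of each gene in the summed RPKM of its histone, H3 at the left and H4 at the right, with mutant bars left of wild-type bars, points for the 3 libraries and the SD. *hht2* holds 36.6% of H3 in the mutant and 29.8% in wild-type cells, and among the H4 genes the libraries are separated for *hhf3* alone.

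Totals per histone type are given as a description, with no test, and the H2B total is that of *htb1* alone. Summed H3 RPKM was 3355, 3175 and 3070 in mutant replicates 1, 2 and 3 and 4057, 4422 and 4823 in wild-type replicates. Summed H4 RPKM was 2553, 2371 and 2356 in the mutant and 3553, 3892 and 4301 in wild-type cells. The ratio of H3 to H4 was accordingly 1.31, 1.34 and 1.3 in mutant libraries and 1.14, 1.14 and 1.12 in wild-type libraries. The ratio of H2A to H2B was 1.43, 1.45 and 1.55 in the mutant and 1.65, 1.97 and 2.0 in wild-type cells. Both ratios were separated between the strains in every library, and how often ratios of other genes are was not computed. All 10 genes together took 0.779%, 0.74% and 0.715% of the counts in the mutant and 1.02%, 1.07% and 1.17% in wild-type cells.

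With all libraries, no gene of the lists of chaperones, regulators and modifiers was lower, beside 7.03% of all genes tested. Each list is short, so 0 lower in a list is near that share. Of 14 genes of histone chaperones and deposition, 0 were lower and 1 was higher (5.33% of all genes were higher). This was *nap1*, the H2A-H2B chaperone, with 9370, 9383 and 9739 normalized counts in the mutant and 5365, 4300 and 4293 in wild-type cells (log2 fold change 1.03, standard error 0.11, adjusted p = 0.000112). It also passed the 2-fold rule. *slm9* of the HIRA complex stood at 0.27 on the log2 scale (adjusted p = 0.121) and the H3-H4 chaperone gene *asf1* at 0.39 (adjusted p = 0.15). Of 7 genes for the control of histone transcription, 0 were lower and 0 higher, beside 7.03% and 5.33% of all genes. Among them *ams2* had 2974, 2768 and 2786 normalized counts in the mutant and 2199, 2473 and 3223 in wild-type cells (log2 fold change 0.11, adjusted p = 0.64). The groups overlapped through wild-type replicate 3 alone. Without that library *ams2* was higher by 0.28 on the log2 scale (adjusted p = 0.011 from edgeR). In that fit 2 genes of this list were higher, as were 858 genes in all. *teb1*, named after its values were seen because of the shared tandem, differed by 0.05 on the log2 scale (adjusted p = 0.864).

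In the list of 12 genes of H2A.Z exchange, 0 were lower and 1 was higher, the ATPase gene *rvb1* (5.33% of all genes were higher and 7.03% lower). *rvb1* (log2 fold change 0.41, adjusted p = 0.0412 from edgeR) lost its call with library totals, with protein-coding genes alone, or without any 1 of the mutant libraries or wild-type replicate 2 (adjusted p = 0.102 to 0.165). Of 5 genes of the centromeric H3 variant CENP-A and its loading, 0 passed in either direction by edgeR with all libraries. The same held for 10 genes of acetylation and deacetylation. Without wild-type replicate 3, 1 gene of the CENP-A list was lower and 1 of the acetylation list higher. Without wild-type replicate 1, 1 gene of each list was higher, and by DESeq2 1 of the acetylation list. *cnp1*, coding for CENP-A itself and also named after its values were seen, had 368, 390 and 331 normalized counts in the mutant and 313, 357 and 408 in wild-type cells (log2 fold change 0.01, adjusted p = 0.969).

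None of the genes in the cell cycle lists was lower with TMM scaling (7.03% of all genes were lower and 5.33% higher), and with library totals 1 gene of mitosis to G1 was. Of 8 target genes of MBF, the G1/S transcription factor, 0 were lower and 1 was higher, the cyclin gene *cig2*, with 2863, 2614 and 2643 normalized counts in the mutant and 1793, 1884 and 2136 in wild-type cells (log2 fold change 0.48, adjusted p = 0.00848 from edgeR). Of 6 genes of MBF itself none passed, and the median log2 fold change of the list was 0.21. Among 10 genes of the DNA replication machinery, 2 were higher, the MCM helicase gene *mcm5* (0.38, adjusted p = 0.025) and the DNA polymerase epsilon gene *cdc20* (0.35, adjusted p = 0.0437). Of 12 genes of mitosis to G1 and cell separation, 3 were higher and 0 lower: *adg1* (0.91), the septum glucanase gene *agn1* (0.72) and the glucanase gene *eng1* (0.60). The calls of *cig2*, *mcm5*, *cdc20* and *eng1* were lost without wild-type replicate 2 (adjusted p = 0.0669, 0.14, 0.202 and 0.0686). That of *cig2* was also lost without mutant replicate 1 (adjusted p = 0.0569), and those of *mcm5* (adjusted p = 0.0662, 0.184 and 0.139) and *cdc20* (adjusted p = 0.118, 0.229 and 0.214) without mutant replicate 1, 2 or 3. *cdc20* was also not called with library totals (adjusted p = 0.0551) or with protein-coding genes alone (adjusted p = 0.0723). Medians of these lists were 0.17 for MBF targets, 0.16 for replication and 0.09 for mitosis to G1, beside 0.00 for all genes. Of the 141 ribosomal protein genes, 3 were lower and 6 higher, beside 7.03% and 5.33% of all genes, and their median was −0.05. With library totals 21 were lower and 12 higher.

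Apart from the partners in a pair, none of the counted genes next to the histone genes was called lower, beside 7.03% of all genes tested. These neighbours are few, so that none was called is near that share. The largest falls were of SPBC1105.13c beside *hhf3* (log2 fold change −0.35, adjusted p = 0.233 from edgeR) and *SPNCRNA.1610* beside *hht3* (−0.20, adjusted p = 0.465). *sec5*, which overlaps the end of *htb1*, differed by 0.19 on the log2 scale (adjusted p = 0.219 from edgeR), *rav1* beside *hht3* by 0.06 (adjusted p = 0.836), *cdc2* beside *pht1* by −0.01 (adjusted p = 0.969), and *aro1* beside *hhf1* by 0.24 (adjusted p = 0.171). *mce1*, the neighbour of *hta2* on the other strand, was higher, with 3007, 3377 and 3629 normalized counts in the mutant and 1952, 2255 and 2586 in wild-type cells (log2 fold change 0.56, adjusted p = 0.00993). Its call was lost without mutant replicate 3 or wild-type replicate 2 (adjusted p = 0.0661 and 0.0515). *SPNCRNA.1432*, which overlaps *hhf2* on the same strand, had 36, 42 and 37 in the mutant and 23, 21 and 23 in wild-type cells (log2 fold change 0.79, adjusted p = 0.0515).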

How the data were processed

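Per the labels and the methods, the authors mapped paired reads of 51 bases from directional poly(A)+ libraries with HISAT2 version 2.1.0 to ASM294v2, converted them with SAMtools, counted them over exons with HTSeq version 0.10.0, and deposited whole-number counts per gene with no normalization. Their DESeq2 table (fold changes, p-values, averages) was not used.

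Strains and replicates were taken from the labels. After filterByExpr had left 5947 genes, library sizes were scaled by TMM, and the strains were compared by the quasi-likelihood test of edgeR version 4.0.16 under R version 4.3.3, with Benjamini-Hochberg adjusted p-values. The edgeR script was checked on simulated data. Standard errors were derived from the log2 fold change and its F statistic. Within-library ratios were compared by an exact permutation test, two-sided. Of 6988 features, 6836 were paired with the ASM294v3 annotation, which gave names, lengths, neighbours and promoter sequences; no coordinates are given because the builds differ. The 10 histone genes were all named. Other genes were named from among up to 4 genes of each list by smallest p-value, overlapping and nearest genes, and the 5 most alike per pair. The promoter of *hta1-htb1* is not reported here. Members and lists were chosen with earlier results of these data known. Alternatives were RLE factors or library totals, no filter or at least 10 counts per library, DESeq2 version 1.42.0, limma-voom (limma version 3.58.1), protein-coding genes alone, the replicate number as a block, and leaving out each library.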

Additional observations from a re-analysis of the deposited data

How the results depend on the processing

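The count of histone genes lower in the mutant was 7 to 9 under the settings that kept all 6 libraries or left out a wild-type library, and 5 to 9 when each library was left out in turn; none was higher in any of the 14 alternatives. Log2 fold changes of all 10 genes kept their sign. *hta1*, *hta2*, *hht1*, *hhf2* and *hhf3* kept their call in all 14, with adjusted p of at most 0.0416, and *hht2* passed in none (lowest adjusted p 0.0676). Leaving out each library gave 205 to 912 genes lower and 102 to 858 higher over all genes. The within-pair difference of *hht1*/*hhf1* ran from −0.03 (without wild-type replicate 3) to 0.08, and the between-pair difference of *hta1-htb1* over *hht2-hhf2* from −0.12 to 0.00 (without wild-type replicate 1); no other setting turned the direction of a ratio. Same-numbered libraries of the strains did not deviate together (correlations −0.03, −0.03 and −0.06), so these counts show no pairing by number. Whether same-numbered cultures were handled together is not given by the labels, and these correlations cannot exclude it. With the replicate number as a block, 7 histone genes remained lower, 354 genes in all were lower and 303 higher, and the within-pair difference of *hht2*/*hhf2* was 0.44 (exact sign-flip p = 0.25, the smallest 3 pairs allow). With library totals in place of TMM, 21 ribosomal protein genes were lower and 12 higher, and under the block 0 of the DNA replication genes were higher; the median log2 fold change of all genes was −0.04 with library totals and 0.01 with RLE factors. With 3 libraries per strain the exact tests cannot pass 0.05.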

Other observations

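Outside the histone genes, 11 protein-coding genes had the tandem AACCCTAACCCT in the 250 bases before their annotated start; they were looked up after the promoters had been seen. Of the 10 with enough counts to test, 0 were lower and 2 were higher by edgeR with adjusted p-values (7.03% and 5.33% of all genes), with a median log2 fold change of 0.29. *ssa2*, an Hsp70 chaperone gene, had 194043, 177493 and 172654 normalized counts in mutant replicates 1, 2 and 3 and 97995, 101603 and 124495 in wild-type replicates 1, 2 and 3 (log2 fold change 0.75, adjusted p = 0.00172). *eft201*, coding for translation elongation factor 2, was higher by 0.40 on the log2 scale (adjusted p = 0.0244). The Hsp90 gene *hsp90* had 168795, 150005 and 149081 against 102965, 114103 and 142231, a log2 fold change of 0.38 that did not pass (adjusted p = 0.076).

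By the root mean square difference of centred log2 normalized counts over the 6 libraries, 5039 other genes with a mean of at least 100 were compared with the sum of each pair. Nearest to *hta1-htb1* was *rhp6* (difference 0.03), the ubiquitin-conjugating enzyme that modifies H2B, with 2890, 2626 and 2510 normalized counts in the mutant and 3332, 3411 and 3853 in wild-type cells. *pcr1*, SPBC15C4.06c, SPAC4H3.09 and *pre8* were almost as near to that pair (0.04 each). Nearest to both *hht1-hhf1* (0.03) and *hht3-hhf3* (0.04) was SPBC1271.08c, with 1370, 1207 and 1216 in the mutant and 1739, 1941 and 2292 in wild-type cells. Nearest to *hht2-hhf2* was *ppi1* (0.02), a peptidyl-prolyl isomerase gene, with 47026, 46958 and 45856 in the mutant and 49440, 57435 and 67001 in wild-type cells. Among so many genes and with 6 libraries, such likeness is a description.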
